A study of Zea mays with 157 samples.

Results

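Circular RNAs and messenger RNAs of maize (Zea mays) primary roots were compared with those of stem and internode. The comparison drew on 12 circRNA and 12 mRNA libraries, 24 of the 157 samples in the series: for each of the inbred lines B73 and Mo17 and the F1 of B73 x Mo17, primary root at stage V1 and at 6DAS, and stem and internode at stage V6. "Root" stands below for both root tissues together and "stem" for stem and internode together, so each organ had 6 libraries of either RNA class, 2 per line. Libraries were chosen by their labelled tissue alone. All plants grew in a greenhouse at 25 °C under 12 h of light and 12 h of dark, with no treatment. Each library mixed 3 separate extracts of 5 to 10 plants in equal amounts, so the p-values below measure the spread between tissues and lines, not between plants. Organ and plant age differ together in this design and cannot be told apart.

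A circRNA is a closed ring formed when the spliceosome joins the end of a downstream exon back to the start of an upstream one, and it is detected by reads across that back-splice junction. The gene that gives rise to it is its host, and one host can give many circRNAs that share exons. Circular molecules have no free ends and so resist the exonucleases that degrade linear RNA. Primary roots grow from a tip meristem, absorb water and minerals at their surface and root hairs, and hold a central vascular cylinder. Young internodes elongate from intercalary meristems and carry scattered vascular bundles.

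circRNA levels are the authors' RPM values, reads scaled to the size of each library. The smallest value in each library was taken as 1 read, which gave an implied depth of 13163082 to 18340445 reads and made 1 read worth 0.0545 to 0.0760 RPM. A circRNA listed at 0 may thus have had up to 3 reads' worth, or 0.164 to 0.228 RPM, by counting error alone. mRNA values were divided by a median-ratio size factor per library and are called scaled values. Each of the 12 libraries had as its closest match, by Spearman correlation over the joined features, another library of its own organ, in both RNA classes. The labels could not be set against known root or stem marker genes, since the files pair no gene identifier with a name. Fewer cells of a type and less RNA per cell cannot be told apart in these bulk samples.

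Roots held fewer circRNAs and less circRNA in all than stems in each of the 3 lines. In B73 the V1 root listed 6764 circRNAs and the 6DAS root 7197, against 8112 in stem and 8745 in internode. In Mo17 the V1 root listed 3681 and the 6DAS root 4466, against 7331 in stem and 5489 in internode. In F1 the V1 root listed 8705 and the 6DAS root 8622, against 12183 in stem and 14585 in internode. Root and stem did not overlap within any line, although the F1 roots lay above the Mo17 stems. The average was 6572.5 ± 2096 circRNAs in root and 9407.5 ± 3355 in stem (SD, n = 6 each). A two-sided exact permutation test within lines, over 216 arrangements, gave p = 0.00926, the smallest p it allows, and 0.0139 after Benjamini-Hochberg adjustment over 6 measures. Permuted over all 12 libraries without regard to line, the same difference gave an exact p of 0.110. Leaving out 1 Mo17 root library or 1 F1 stem library gave exact permutation p-values of 0.0556 to 0.0833. The test compares plain organ means, so leaving out 1 library unbalances the lines and lets differences between lines enter. Thinned to the lowest implied depth, the difference was -2689 circRNAs (exact permutation p = 0.00926). This evens the implied depth of the libraries, not their circRNA totals, which were lower in root. Number, hosts and circRNAs per host were not compared at an equal circRNA total, so they are not separate from that sum.

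The summed circRNA level separated the organs further. It was 1385 and 1482 RPM in the B73 V1 and 6DAS roots, against 2479 and 2229 RPM in B73 stem and internode. It was 817 and 808 RPM in the Mo17 V1 and 6DAS roots, against 1996 and 1429 RPM in Mo17 stem and internode. It was 1880 and 2032 RPM in the F1 V1 and 6DAS roots, against 3994 and 3601 RPM in F1 stem and internode. The root mean of 1401 ± 515 RPM was 53.4% of the stem mean of 2621 ± 983 RPM (SD, n = 6 each; exact permutation p = 0.00926, adjusted 0.0139). What the denominator of the RPM held is not stated, and whether the sum moves with the other RNA in a library was not tested.

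The smaller root catalogue also came from fewer genes, was spread more evenly and had a longer median genomic span. Hosts with at least 1 circRNA averaged 3990.5 ± 1149 in root and 5118 ± 1539 in stem (SD, n = 6 each; exact permutation p = 0.00926, or 0.0833 to 0.167 without 1 Mo17 root or 1 F1 stem library). The p-values without a library come from organ means in which the lines are no longer balanced. The 10 most abundant circRNAs took 9.78% ± 1.29 of the summed RPM in root and 13.4% ± 2.43 in stem (SD, n = 6 each; exact permutation p = 0.00926). The median genomic span, the distance between both ends of the back-splice with introns included, was 1320 ± 97.7 bp in root and 1123 ± 79.2 bp in stem (SD, n = 6 each; exact permutation p = 0.0185, adjusted 0.0222). All circRNA sizes in bp given here are such spans, and the length of the RNA itself is not known. The median span was longer in root in 3 of 3 lines, and in B73 and Mo17 no root library overlapped a stem library. In F1 the roots had 1262 and 1196 bp, against 1110 and 1239 bp in stem and internode, so the F1 organs overlapped. The call on span was lost (exact permutation p = 0.0556) when a circRNA had to reach 2 times the smallest value of its library, and without the V1 root or the stem tissue (0.0741 for each).

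Short circRNAs made up a smaller share of the root catalogue. In measures added after the values were seen, circRNAs under 500 bp made up 14.7% ± 1.91 of those listed in root and 20.95% ± 3.16 in stem (SD, n = 6 each; exact permutation p = 0.0185, adjusted 0.0370 over the 4 added measures). Those over 5000 bp made up 11.8% ± 0.750 in root and 10.7% ± 0.751 in stem (SD, n = 6 each), which missed the threshold after adjustment (exact permutation p = 0.0463, adjusted 0.0617). Each host gave 1.63 ± 0.139 circRNAs in root and 1.81 ± 0.156 in stem (SD, n = 6 each; exact permutation p = 0.00926, adjusted 0.0370). Weighted by level, the mean span was 2428 ± 123 bp in root and 2434 ± 242 bp in stem (SD, n = 6 each; exact permutation p = 0.972).

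**Figure D1:**
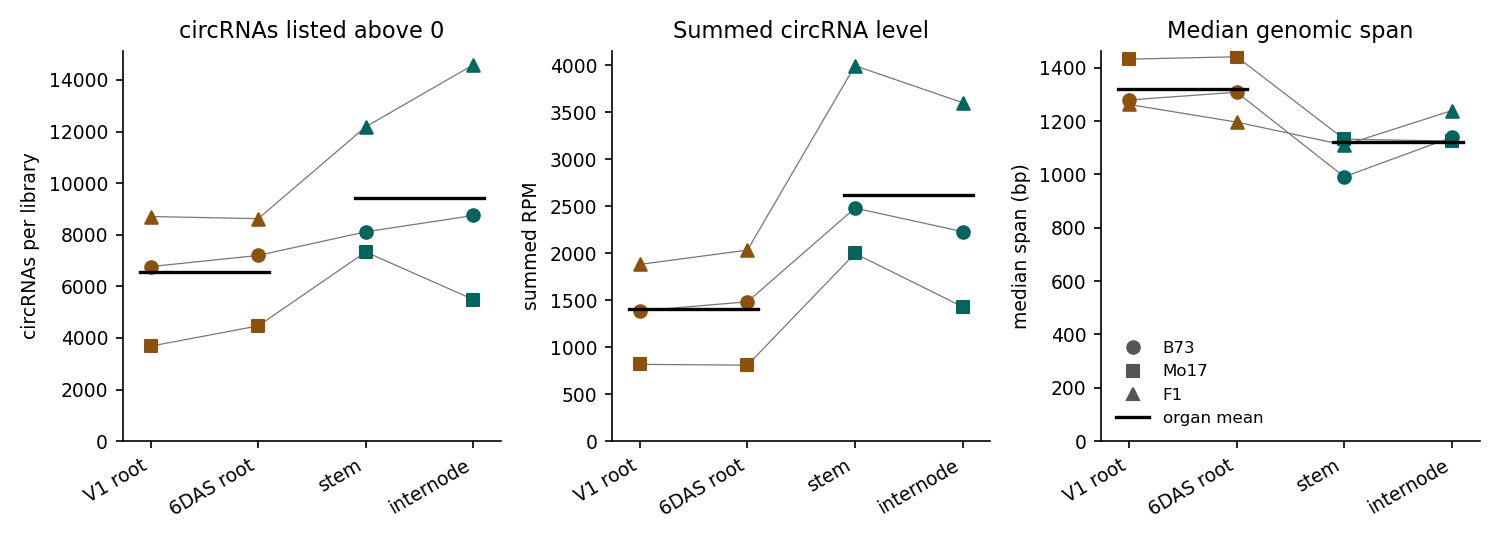
Number of circRNAs above 0 (left), summed RPM (middle) and median genomic span in bp (right) for each circRNA library, root tissues left of stem tissues; points are single libraries, thin lines join the tissues of a line and thick lines mark organ means. The 6 root libraries lie below the stem libraries of their own line in number and sum.

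For single circRNAs the lines were joined by the deposited list of paired positions, which left 17834 circRNAs with a place in both parental genomes. Of these, 9178 were above 0 in at least 1 of the 12 libraries, 219 were above 0 in all 12, and 2676 were above 0 in at least 3 and were tested with limma on log2(RPM + 0.0545), with line as a block. At a Benjamini-Hochberg adjusted p under 0.05, 30 circRNAs were higher in root (1.12% of those tested) and 257 were lower (9.60%). Of the 2676 tested, 17 had both root libraries above both stem libraries in every line, and 151 had them below. Each of these orders holds for 1 of the 216 placements of organ labels within lines. The count of 17 was therefore not read as a result by itself. The median change over all tested circRNAs was -0.28 on the log2 scale, and it was -0.10 in B73, -0.15 in Mo17 and -0.52 in F1. Dividing each library by its circRNA total, which takes out the difference in sum, brought that median to -0.01 and turned the split into 102 higher (3.81%) and 102 lower (3.81%). Of the 287 calls at the deposited scale, 132 were called in the same direction at that scale. The balance of directions thus depended on the scale. Leaving out 1 line or 1 tissue left 7 to 18 higher and 91 to 176 lower, the fewest without F1.

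limma estimated no spread particular to single circRNAs (its prior degrees of freedom were infinite), so each circRNA was judged by a spread shared among circRNAs of its level, and the adjusted p-values below are very small. Without that sharing 13 were higher (0.486%) and 148 lower (5.53%), and 145 of the 287 calls stood. Both p-values are given for named circRNAs.

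**Figure D2:**
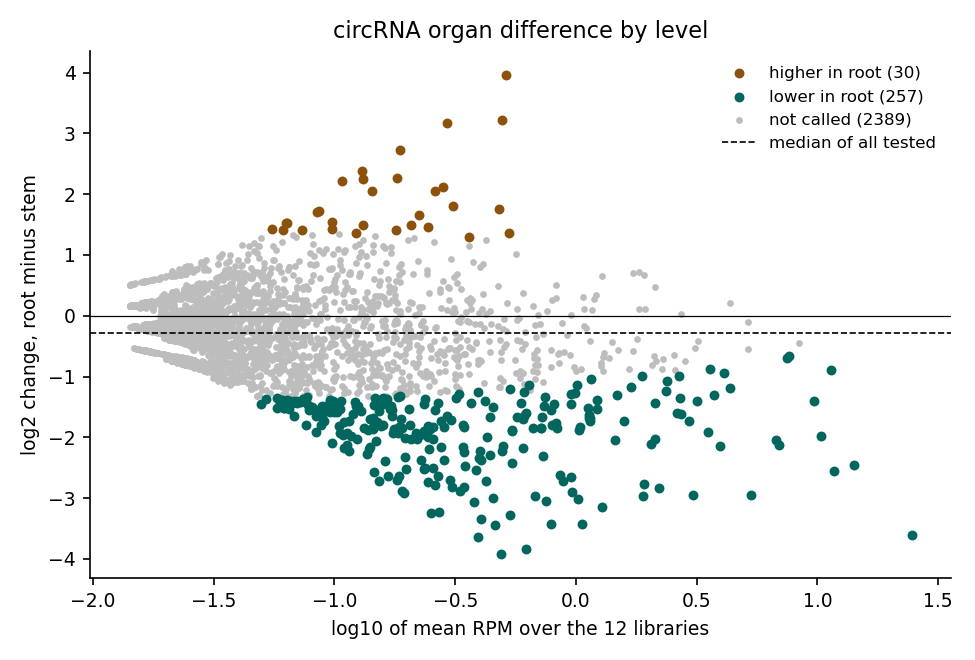
log2 change (root minus stem) of the 2676 tested circRNAs against the log10 of their mean RPM over the 12 libraries; brown points were called higher in root (30), green points lower (257), grey points neither, and the dashed line is the median, -0.28. The green points reach to the highest levels, while no brown point has a mean of 1 RPM or more.

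Only 3 root-higher circRNAs met the rule for naming (called, no overlap in any line, and a mean of at least 0.5 RPM in the higher organ). The circRNA with the largest change was a 342 bp span at chr3:144986207-144986548 (B73 RefGen_v4, minus strand), within Zm00001d041951. It had 1.22 and 0.798 RPM in the B73 V1 and 6DAS roots, 1.005 and 0.332 RPM in those of Mo17, and 1.55 and 1.20 RPM in those of F1. In stem tissues it was listed at 0 in 5 of 6 libraries and at 0.0736 RPM in the F1 stem. Root and stem did not overlap. The change was 3.97 ± 0.46 (log2, SE; limma adjusted p = 1.88e-15, or 0.000513 without shared spread). Its host mRNA was also higher in root, with a scaled value of 12.6 ± 5.88 against 0.320 ± 0.219 in stem (SD, n = 6 each; log2 change 3.26, limma adjusted p = 5.54e-07).

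A 1003 bp circRNA at chr1:6108257-6109259 (minus strand) came from Zm00001d027472. It had 0.709 and 0.285 RPM in the B73 V1 and 6DAS roots, 1.35 and 1.17 RPM in those of Mo17, and 1.06 and 0.967 RPM in those of F1. In stem and internode it was listed at 0 and 0.103 RPM in B73, 0.211 and 0 RPM in Mo17, and 0 and 0.0588 RPM in F1. All 6 root libraries exceeded all 6 stem libraries, by a change of 3.22 ± 0.45 (log2, SE; limma adjusted p = 8.18e-11, or 0.00848 without shared spread). The host mRNA rose as well, at 23.6 ± 16.8 in root and 2.15 ± 1.09 in stem (scaled value, SD, n = 6 each; log2 change 2.79).

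The third was a 2187 bp circRNA at chr1:19316797-19318983 (plus strand). Its 6 root values ran from 0.176 RPM in the Mo17 6DAS root to 0.982 RPM in the B73 V1 root, and the F1 internode alone among stem tissues listed it, at 0.0588 RPM. The change was 3.18 ± 0.47 (log2, SE; limma adjusted p = 1.52e-09, or 0.000954 without shared spread), and its host mRNA averaged 50.95 ± 31.4 in root and 3.03 ± 2.23 in stem (scaled value, SD, n = 6 each). A shorter circRNA of the same host, 1014 bp at chr1:19316083-19317096, was 1 of 4 circRNAs present in all 6 root libraries and listed at 0 in all 6 stem libraries. Its mean was 0.372 ± 0.263 RPM in root (SD, n = 6). For all 3 circRNAs the ratio to the host mRNA gave no call (limma adjusted p = 0.223, 0.548 and 0.508).

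The stem-higher circRNAs were more numerous and reached far higher levels. By far the most abundant was a 1327 bp circRNA at chr4:60866698-60868024 (minus strand). It had 3.34 and 5.26 RPM in the B73 V1 and 6DAS roots, 2.71 and 2.93 RPM in those of Mo17, and 3.49 and 4.54 RPM in those of F1. It had 42.1 and 44.2 RPM in stem and internode of B73, 39.03 and 34.5 RPM in those of Mo17, and 58.4 and 53.96 RPM in those of F1. Every stem library was several times higher than every root library. The mean was 3.71 ± 0.989 RPM in root and 45.4 ± 9.09 RPM in stem (SD, n = 6 each), a change of -3.61 ± 0.18 (log2, SE; limma adjusted p = 5.70e-88, or 4.65e-06 without shared spread). This single junction made up 0.186% to 0.363% of all circRNA RPM in root libraries and 1.46% to 2.42% in stem libraries. Its host mRNA was lower in root too, by less: 2.78 ± 0.6252 in root and 14.1 ± 3.62 in stem (scaled value, SD, n = 6 each; log2 change -1.99). The ratio of circRNA to host mRNA fell by 1.62 on the log2 scale (limma adjusted p = 1.00e-07).

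The largest change downward belonged to a 641 bp circRNA at chr10:10832942-10833582 (minus strand) of Zm00001d023583. It was listed at 0 in 5 of 6 root libraries and at 0.0589 RPM in the F1 V1 root. It had 1.93 and 0.926 RPM in stem and internode of B73, 0.672 and 0.458 RPM in those of Mo17, and 1.10 and 0.716 RPM in those of F1. The change was -3.92 ± 0.46 (log2, SE; limma adjusted p = 4.76e-15, or 0.000513 without shared spread), while the host mRNA was at 6.62 ± 2.498 in root and 13.003 ± 4.18 in stem (scaled value, SD, n = 6 each; log2 change -0.90).

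A 353 bp circRNA at chr1:290901922-290902274 (plus strand) of Zm00001d034364 changed without a called change of its host. It was listed at 0 in all 4 root libraries of B73 and Mo17, and at 0.123 and 0.161 RPM in the V1 and 6DAS roots of F1. It had 1.86 and 0.823 RPM in stem and internode of B73, 1.02 and 0.958 RPM in those of Mo17, and 1.62 and 0.863 RPM in those of F1. The change was -3.83 ± 0.44 (log2, SE; limma adjusted p = 2.34e-15, or 0.000875 without shared spread). The host mRNA averaged 30.3 ± 3.51 in root and 28.01 ± 3.79 in stem (scaled value, SD, n = 6 each; log2 change 0.11 ± 0.12 SE, limma adjusted p = 0.453).

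The other 3 named stem-higher circRNAs differed in how far their hosts followed. A 701 bp circRNA at chr4:3410724-3411424 averaged 0.0136 ± 0.0334 RPM in root and 0.776 ± 0.311 RPM in stem, and its host mRNA changed by -1.82 (log2). A 294 bp circRNA at chr5:221202379-221202672 averaged 0.134 ± 0.0714 RPM in root and 1.98 ± 0.973 RPM in stem, with a host change of -1.38 (log2). A 659 bp circRNA at chr4:6224291-6224949 averaged 0.0740 ± 0.0858 RPM in root and 1.51 ± 1.20 RPM in stem (SD, n = 6 each, as for the other two), and its host mRNA fell about as far, with a log2 change of -3.12 against -3.43. Its ratio to the host gave no call (limma adjusted p = 0.705). Its stem values split by line, with 2.69 and 3.102 RPM in stem and internode of Mo17 and 0.367 and 0.268 RPM in those of B73.

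**Figure D3:**
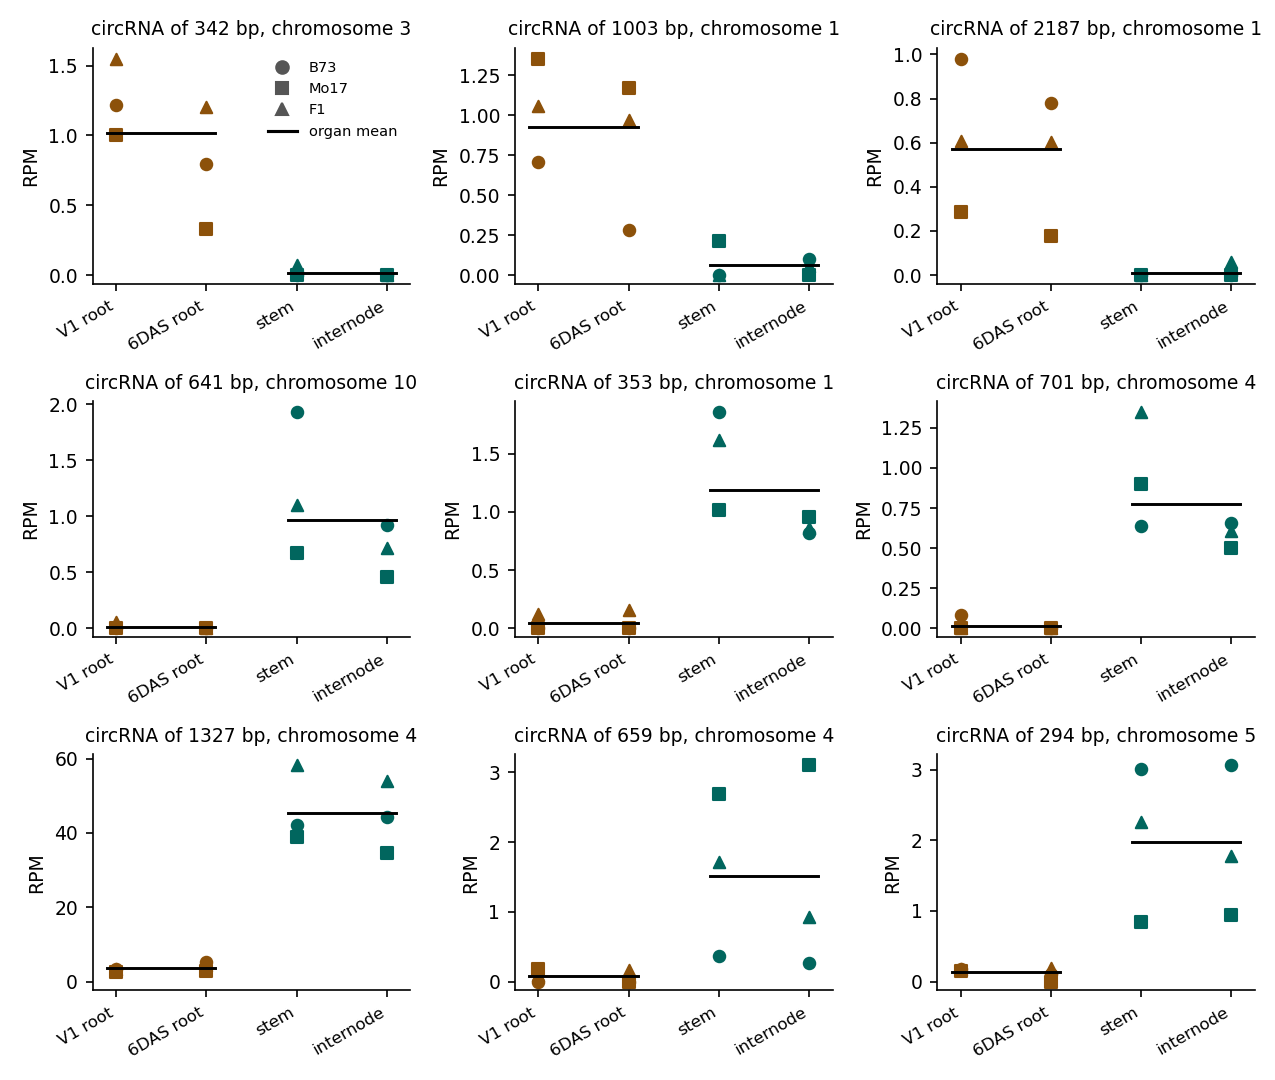
RPM of the 9 named circRNAs in each library, root tissues left of stem tissues, the 3 root-higher circRNAs in the top row and the 6 stem-higher ones below; bars are organ means. No root value overlaps a stem value of the same line in any panel, and the 1327 bp circRNA of chromosome 4 stands at 2.71 to 5.26 RPM in root and 34.5 to 58.4 RPM in stem.

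A fitted change depends on the pseudocount where one organ is at or near 0. With a pseudocount 10 times larger the 3 root-higher circRNAs changed by 0.96 to 1.44 and the 5 weaker stem-higher ones by -1.80 to -1.21, while the abundant 1327 bp circRNA changed by -3.44 (log2). All 9 stayed called. All 9 were also called after division by the circRNA total, where the abundant one changed by -2.60.

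Among the joined circRNAs, the highest mean in root belonged to a 3667 bp circRNA at chr1:10524204-10527870, which averaged 7.94 ± 1.96 RPM in root and 14.9 ± 3.94 RPM in stem (SD, n = 6 each). The next of the joined circRNAs, 4640 bp at chr2:108746785-108751424, averaged 7.31 ± 3.36 RPM in root and 9.45 ± 2.997 RPM in stem (SD, n = 6 each; limma adjusted p = 0.155). The direction of both depended on the scale: as a share of the circRNA total the first changed by 0.12 (adjusted p = 0.683) and the second was higher in root, by 0.57 (limma adjusted p = 0.0122). Of the 93 circRNAs with a mean of 1 RPM or more, 51 were lower in root and 0 higher by limma at the deposited scale, with a median change of -0.94. After division by the total, 20 of them were lower and 15 higher.

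In the other direction of presence, 14 circRNAs were above 0 in all 6 stem libraries and listed at 0 in all 6 root libraries. Their stem means ran from 0.0995 to 0.544 RPM, so each rests on few reads per library. All 14 were called lower in root, 12 of them also after division by the total. The 4 circRNAs with the reverse pattern had root means of 0.214 to 0.372 RPM and were called at both scales. These were picked after their values were seen.

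Calls were also counted by size. Among the 402 tested circRNAs under 500 bp, 50 were lower (12.4%) and 3 higher, with a median change of -0.56 (log2). Among the 1874 of 500 to 5000 bp, 164 were lower (8.75%) and 24 higher, with a median of -0.22, and among the 400 over 5000 bp, 43 were lower (10.8%) and 3 higher, with a median of -0.34. After division by the total the medians were -0.28, 0.06 and -0.02. The medians of the shortest and of the longest class lay below 0 at both scales, and that of the middle class changed sign. These classes were not tested against each other.

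Calls were also counted by host. The 287 calls fell on 215 of the 1317 hosts of tested circRNAs. Of these hosts 540 had 2 or more tested circRNAs, and 36 had 2 or more called ones, with no test of how the calls were spread. In 32 of the 36 all called circRNAs were lower in root, in 2 all were higher, and in 2 they were mixed. Since 257 of all 287 calls were lower, 2 calls of a host would mostly both be lower by that share alone. The host with most calls spans chr3:30048621-30145071 in its circRNAs. It was picked for its number of calls: 11 of its 24 tested circRNAs were lower in root, against 9.60% of all tested, and all 24 had a fitted change below 0, against 67.9% of all tested. After division by the circRNA total 8 of the 24 were lower, against 3.81% of all tested, and 19 had a fitted change below 0, against 50.4%. The largest of its circRNAs by level, 12121 bp at chr3:30128345-30140465, averaged 4.08 ± 0.806 RPM in root and 24.2 ± 9.82 RPM in stem (SD, n = 6 each). A neighbour that shares none of its ends, 7462 bp at chr3:30120449-30127910, averaged 2.60 ± 1.04 RPM in root and 11.3 ± 3.02 RPM in stem (SD, n = 6 each). Summed over all its circRNAs, the host gave 7.03 to 13.7 RPM in root libraries and 29.9 to 58.6 RPM in stem libraries, and its mRNA averaged 9.07 ± 4.04 in root and 16.8 ± 7.55 in stem (scaled value, SD, n = 6 each; log2 change -0.81).

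Hosts with several calls differed in whether their mRNA followed and whether the scale mattered. Of the 8 hosts with 4 or more called circRNAs, the one above included, 3 had an mRNA lower in root and 5 an mRNA without a call by limma. After division by the circRNA total the circRNA sum was lower in root for 4 of the 8 and had no call for the other 4, all of which had an uncalled mRNA. The host at chr9:58116065-58176986 had 7 of 21 tested circRNAs lower, and its sum was 10.1 ± 4.68 RPM in root and 40.4 ± 12.3 RPM in stem (SD, n = 6 each). Its mRNA was lower as well, by a log2 change of -0.64 (limma adjusted p = 0.00256), and its sum changed by -1.12 (log2) after division by the total. At chr2:206184008-206212723 the mRNA had no call (log2 change 0.09, limma adjusted p = 0.797), while the circRNA sum was lower at both scales, by a log2 change of -1.92 as deposited and -1.29 after division (limma adjusted p = 0.0111). All 4 tested circRNAs of the host of the abundant 1327 bp circRNA were lower, and the sum of that host changed by -2.61 (log2) after division.

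The examples that follow are among the 4 hosts whose sum had no call after division. At chr1:117623417-117688790, 7 of 19 tested circRNAs were lower, and the circRNA sum was 6.42 ± 1.49 RPM in root and 13.2 ± 2.74 RPM in stem. The mRNA of that host averaged 62.4 ± 20.8 in root and 61.4 ± 16.6 in stem (scaled value, SD, n = 6 each; log2 change 0.00 ± 0.24 SE, limma adjusted p = 0.991). The host at chr1:10524204-10567361, source of the 3667 bp circRNA above, had 4 of 11 tested circRNAs lower in root, with 12.3 ± 2.62 RPM in root and 23.8 ± 6.65 RPM in stem in sum. Its mRNA averaged 19.7 ± 6.95 in root and 18.7 ± 4.32 in stem (scaled value, SD, n = 6 each). A mixed host lies at chr10:101422293-101440368, where 5 circRNAs were lower and 1 higher in root. After division by the circRNA total, the host sums changed by -0.04 at chr1:117623417-117688790 (log2; limma adjusted p = 0.922) and by 0.07 at chr1:10524204-10567361 (log2; limma adjusted p = 0.817). At that scale limma called 2 of 19 circRNAs of the first host lower. It called 0 of 11 of the second lower and 0 of 10 of the mixed host (2 at an unadjusted p under 0.05 in each), and 1 of the mixed host higher.

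Circular and linear RNA of a gene were then set side by side for all tested circRNAs with a tested host (2669 circRNAs of 1313 hosts). Of the 29 root-higher circRNAs with a tested host, 19 had a host mRNA higher in root (65.5%), 1 had a lower one, and 9 had no call. Of the 256 stem-higher circRNAs, 105 had a host mRNA lower in root (41.02%), 18 had a higher one (7.03%), and 133 had no call (51.95%). Over all tested circRNAs 21.4% of hosts were higher and 23.3% lower in root, and 55.4% had no call. The change of a circRNA and that of its host correlated weakly (Spearman rho = 0.33 over 2669 circRNAs, many of which share a host, a description with no test). At the scale of table totals 63 of 102 stem-higher circRNAs had a host lower in root (61.8%, against 37.5% of all) and 38 of 101 root-higher ones a host higher in root (37.6%, against 12.6%).

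The ratio of each circRNA to its host mRNA was lower in root for 399 of 2669 circRNAs (14.9%) and higher for 75 (2.81%). Among the 399, the circRNA itself was called lower for 175, of which 116 had a host without a call. For 176 the circRNA had no call and the host mRNA was higher in root. Among the 75, 62 had a circRNA without a call on a host whose mRNA was lower in root. With a circRNA pseudocount 10 times larger the ratio was higher for 403 and lower for 619. The split was 142 higher (5.32%) and 176 lower (6.59%) once circRNAs were divided by their total. Leaving out 1 line or tissue gave as few as 33 higher (without Mo17) and 153 lower (without the stem tissue).

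The ratio rose most, by 4.47 (log2; limma adjusted p = 1.47e-09), for a 913 bp circRNA at chr9:23993191-23994103 that was listed at 0 in all 6 root libraries and in 3 of 6 stem libraries. Its host mRNA was at 0.0820 ± 0.0375 in root and 36.5 ± 6.68 in stem (scaled value, SD, n = 6 each), so the rise rests on the host and the pseudocount. The same holds for the ratio change of -3.56 (log2) of a 1074 bp circRNA at chr7:159041626-159042699, listed at 0 in all stem libraries and in 3 of 6 root libraries, whose host averaged 50.2 ± 38.9 in root and 1.20 ± 0.323 in stem (scaled value, SD, n = 6 each). The largest fall was the one of the 353 bp circRNA on chromosome 1 described above, by 3.94 on the log2 scale (limma adjusted p = 5.41e-08), where the host hardly moved.

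**Figure D4:**
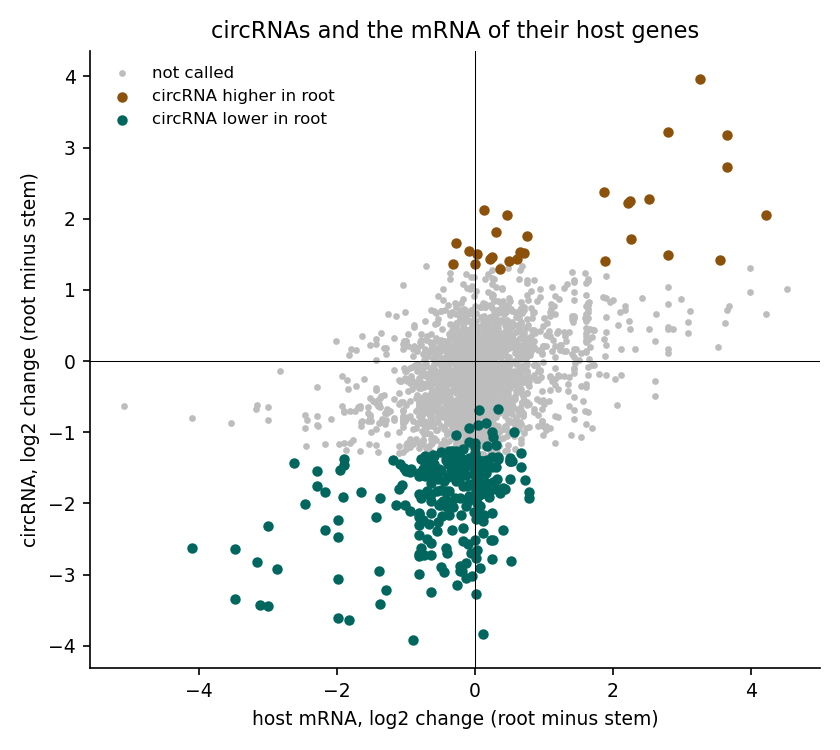
log2 change (root minus stem) of each tested circRNA (vertical axis) against that of its host mRNA (horizontal axis); brown points are circRNAs called higher in root, green points lower, grey points neither. Of the green points, 133 have a host mRNA that was not called (51.95%, against 55.4% of all tested). Points with an uncalled host lie near 0 on the horizontal axis by that choice.

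A circRNA that exists in only one parental genome drops out of the joined table, so RPM was also summed per host gene over all its circRNAs, a measure added after the values were seen. Of 2316 hosts tested, 40 had more circRNA in root (1.73%) and 284 less (12.3%). At the scale of table totals 100 were higher (4.32%) and 85 lower (3.67%). Of the 40, 32 had an mRNA higher in root and 0 a lower one by limma, with 7 of the 39 tested mRNAs uncalled (82.1% higher, against 23.4% of all 2304 hosts with a tested mRNA). Of the 284, 282 had a tested mRNA: 116 had one lower in root (41.1%, against 24.7% of all), 148 an uncalled one (52.5%, against 51.9%) and 18 a higher one (6.38%, against 23.4%). The ratio of the host sum to the mRNA was higher in root for 51 of 2304 hosts (2.21%) and lower for 379 (16.4%), or 120 and 137 after division by the circRNA total.

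Linear transcripts changed in both directions in large numbers. Of 10889 genes paired between the lines, 8460 had a scaled value of at least 1 in 3 or more libraries and were tested with limma on log2(scaled value + 1), with line as a block. In root 2516 were higher (29.7%) and 2119 lower (25.0%), together 54.8% of those tested, and the median change was 0.01. Of the 8460 genes tested, 1983 had both roots above both stem tissues in every line, and 1650 had them below. Changes of at least 1 on the log2 scale were found for 1461 of the higher and 832 of the lower genes. Division by table totals shifted the median to -0.22 and the split to 1922 higher (22.7%) and 3113 lower (36.8%), and quantile normalization gave a median of -0.17 with 2009 higher (23.6%) and 2964 lower (34.8%). With tissue as a random effect, which treats the 3 lines of a tissue as related, 1680 were higher and 1247 lower, together 34.6% of those tested. The estimated correlation between libraries of a tissue was 0.53. The p-values of the genes named below come from the fit that does not allow for it.

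Gene names, and with them the pathway lists drawn up for root and stem, could not be used, so genes are given by identifier alone. Zm00001d031909 had scaled values of 1000.4 and 1737 in the B73 V1 and 6DAS roots, 480 and 943 in those of Mo17, and 450 and 808 in those of F1. It stayed below 1 in all 6 stem libraries, between 0.0181 and 0.951. The change was 9.24 ± 0.30 (log2, SE; limma adjusted p = 1.18e-09). Zm00001d051872 ran from 303 to 1187 in root and from 0 to 0.782 in stem, a change of 8.66 ± 0.29 (log2, SE; limma adjusted p = 1.29e-09).

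In the other direction, Zm00001d005454 had 0.465 and 0.377 in the B73 V1 and 6DAS roots, 6.59 and 6.13 in those of Mo17, and 5.40 and 5.16 in those of F1 (scaled values). Its stem values ran from 351 in the Mo17 stem to 765 in the F1 stem, a change of -6.83 ± 0.34 (log2, SE; limma adjusted p = 3.05e-08). Zm00001d021435 ran from 1.21 to 11.5 in root and from 71.1 to 772 in stem, a change of -5.97 ± 0.63 (log2, SE; limma adjusted p = 1.16e-05). Within each line its stem value was above its internode value.

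A gene at 10 or more in all 6 root libraries and under 1 in all 6 stem libraries was seen 59 times, and the reverse 7 times. Hosts of tested circRNAs were set beside the other genes, as a description with no test. Of 1313 hosts 307 were higher in root (23.4%) and 311 lower (23.7%). Of the 7147 other genes 2209 were higher (30.9%) and 1808 lower (25.3%). The median size of change was 0.36 for hosts and 0.53 for the others on the log2 scale, and the median scaled value was 18.9 for hosts and 8.13 for the others.

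Each line was also fitted alone, 2 root against 2 stem libraries with all its own features, so that no library is shared between lines. In its own table B73 gave 226 circRNA calls (7.88%), Mo17 169 (9.15%) and F1 333 (8.01%). Of the B73 calls, 51 could be tested in Mo17, and 50 of them had the same direction there (98.0%, against 68.6% of all 458 circRNAs tested in both). Of the Mo17 calls, 72 could be tested in B73, and 66 had the same direction (91.7%). Since 193 of the 226 B73 calls and 160 of the 169 Mo17 calls were lower in root, a shared direction would often follow from that share alone. Agreement after division by the circRNA total was not tested. For mRNA B73 gave 2985 calls (16.4%), Mo17 3197 (15.4%) and F1 3928 (12.2%). Of the 887 B73 calls tested in Mo17, 864 had the same direction (97.4%, against 80.9% of all 6300 genes tested in both), 558 were called the same way and 2 the opposite way.

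The organ difference of B73 was tested against that of Mo17 by an interaction term. For circRNAs limma called 0 of 2676, with 165 at an unadjusted p under 0.05. For mRNA it called 29 of 8460 (0.343%), 14 with a larger root-minus-stem change in B73 (0.165%) and 15 with a larger one in Mo17 (0.177%). In 14 of the 29 the fitted changes of the 2 lines had opposite signs, and in 25 the F1 lay between its parents. The 29 were picked for a large difference between the parents, which by itself favours both patterns. The shares over all tested genes were not counted, so no conclusion on the F1 is drawn. Fitted without F1, 19 genes were called. When genes had to pass the filter in 6 libraries, 5 of 7797 were called, and Zm00001d016189 and Zm00001d042122 were not tested.

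Among the root and stem libraries, Zm00001d016189 was high only in the roots of Mo17 and F1. Its scaled values were 0.118 and 0.114 in the B73 V1 and 6DAS roots, 145 and 400.3 in those of Mo17, and 107 and 231 in those of F1, while all 6 stem libraries listed it at 0. The difference between the changes (B73 minus Mo17) was -7.76 ± 0.65 (log2, SE; limma adjusted p = 0.00160). Among the same libraries, Zm00001d042122 was high only in stem and internode of Mo17 and F1. It had at most 0.757 in any root library, and in stem and internode it had 0.221 and 0.151 in B73, 23.9 and 22.5 in Mo17, and 24.5 and 16.7 in F1. The difference was 5.14 ± 0.33 (log2, SE; limma adjusted p = 0.000361).

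The remaining named genes had changes of opposite sign in the parents. Zm00001d035246 had 43.7 and 30.9 in the V1 and 6DAS roots and 0.286 and 0.138 in stem and internode of B73. In Mo17 it had 14.9 and 37.4 in the roots and 107 and 111 in stem and internode, and in F1 8.27 and 8.76 in the roots and 12.0 and 4.74 in stem and internode. The difference was 7.12 ± 0.64 (log2, SE; limma adjusted p = 0.00201). Zm00001d028548 had 2.93 and 3.40 in root and 32.9 and 24.2 in stem and internode of B73, against 3.46 and 5.53 in root and 1.62 and 0.918 in stem and internode of Mo17. F1 followed B73, with 1.48 and 4.33 in root and 25.9 and 12.4 in stem and internode. The difference was -4.08 ± 0.62 (log2, SE; limma adjusted p = 0.0324), and it missed the threshold (adjusted p = 0.0555) when genes had to pass the filter in 6 libraries.

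**Figure D5:**
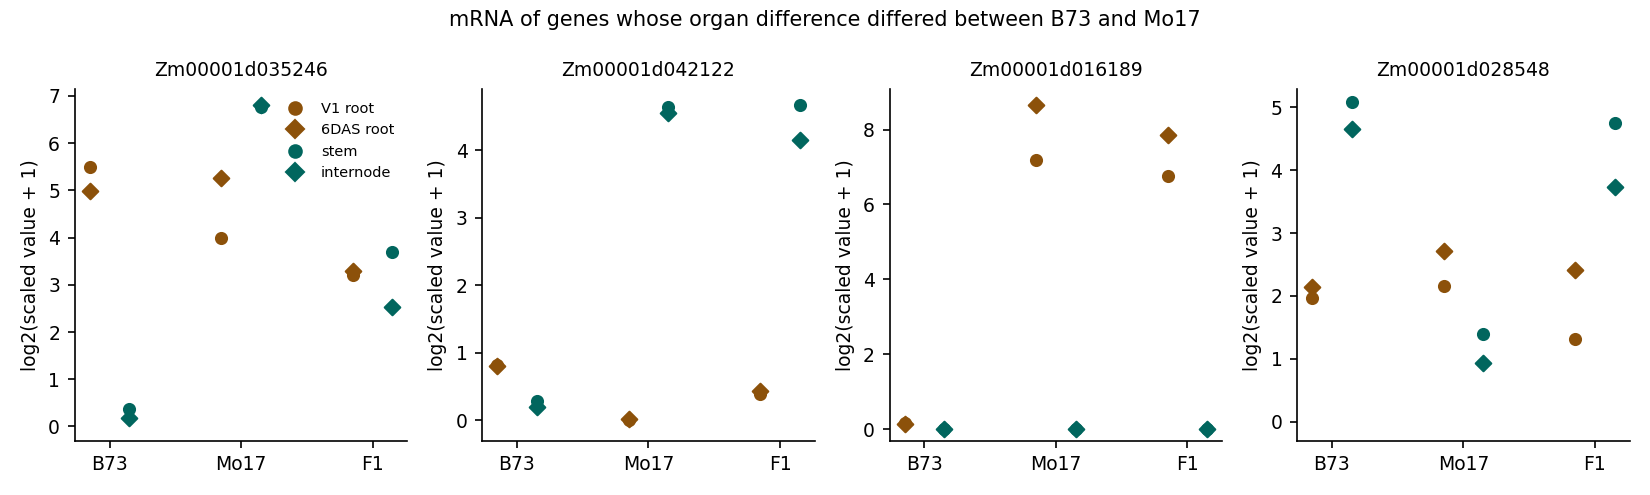
log2(scaled value + 1) of the 4 genes in B73, Mo17 and F1, with root libraries (brown) left of stem libraries (green) in each line; circles are V1 root and stem, diamonds 6DAS root and internode. Zm00001d016189 is near 0 in B73 roots and at 0 in all stem libraries, and Zm00001d042122 is below 1 on this axis in both organs of B73.

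Across the 25 tissues with a usable column per line, organ-high in this comparison did not mean highest in that organ. The circRNA and mRNA sets below were called on root and stem values that also enter the peaks. A raised share in the called organ was thus built in. Of the 30 root-higher circRNAs, 14 had their highest mean RPM over the lines in a root tissue (46.7%, against 9.16% of all tested), and 7 had it in 1 of the 10 leaf tissues (23.3%, against 15.4% of all tested). Of the 257 stem-higher circRNAs, 81 peaked in stem or internode (31.5%, against 18.3% of all tested), 110 in 1 of the 6 inflorescence tissues (42.8%, against 37.6%) and 48 in a leaf (18.7%, against 15.4%). Each of the named root-higher circRNAs was highest in a leaf in every line, above its root values. The 342 bp circRNA of chromosome 3 reached 2.13 to 2.95 RPM in a stage 2 leaf base of every line. The 1003 bp circRNA of chromosome 1 reached 2.18 RPM in a first leaf of B73, 5.43 RPM in the Mo17 ear leaf and 3.16 RPM in a first leaf of F1. The 2187 bp circRNA of chromosome 1 reached 2.60 RPM in B73, 2.12 RPM in Mo17 and 2.99 RPM in F1, each in a first leaf. The abundant 1327 bp circRNA of chromosome 4 peaked in the 1 cm tassel in all 3 lines, at 105 RPM in B73, 107 RPM in Mo17 and 95.4 RPM in F1. Among root-higher mRNAs, 1326 of 2516 peaked in root in the Mo17 TPM table (52.7%, against 18.5% of all tested), and among stem-higher mRNAs 331 of 2119 peaked in stem or internode (15.6%, against 8.12%). Zm00001d031909 had at most 1.51 in any of the 21 tissues that are neither root nor stem, in any line, as deposited. The other 3 named genes were not confined to their organ. Zm00001d051872 peaked in a root in every line but had 60.4 in B73, 187 in Mo17 and 106 in F1 in husk leaf. Zm00001d005454 peaked in the 1 cm tassel, at 1064 in B73, 4308 in Mo17 and 2103 in F1, and Zm00001d021435 in husk leaf, at 2346 in B73, 3668 in Mo17 and 3932 in F1. The Mo17 unit is TPM, and the unit of the B73 and F1 values is not named.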

How the data were processed

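circRNA tables hold RPM and the Mo17 mRNA table TPM, as deposited by the authors (each Mo17 column sums to about 1000030). The B73 and F1 mRNA tables hold another unit that no header names, as deposited. Tools given by the submitters' processing notes, with no version, were TopHat, HISAT, SAMtools and StringTie, on B73 RefGen_v4; the source column of the deposited annotation names circexplorer2. Positions are as that annotation gives them. Whole reads were not recovered from RPM steps, least of all in F1, where 48.4% to 52.2% of values lay on sixths of a step (98.8% or more in the inbreds), so its implied depth is less certain and no count test was run. Tables were joined by the deposited pairing lists. limma 3.58.1 in R 4.3.3 was run with a trend and line as block; Python 3.11.15 with scipy 1.17.1 ran permutations. In simulated data with 200 changed features, calls recovered 81% (log2 1) and 92% (log2 2) over 8460 mRNAs, and 27% and 85% over 2676 circRNAs. Calls on unchanged features made up 6.49% of the mRNA calls and 4.27% of the circRNA calls. Shifts and normal noise were added to log2 values with no floor at 0. Of the 2676 circRNAs, 1942 had a mean under 0.1 RPM, so recovery of falls near 0 was not measured. Lines share no plants; pairing follows the labelled line. Named features were the largest changes that passed adjusted p under 0.05 without overlap in any line, at a mean of 10 scaled units or 0.5 RPM: 2 genes and up to 6 circRNAs a direction; for the ratio and line tests, 2 a direction by size alone. Members and lists were chosen with earlier results of these data known. The 17 gene lists could not be tested: 0 of 82766 identifiers matched the reference table of 49888 genes. Per-sample columns left unused numbered 6, since no single label matched them.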

Additional observations from a re-analysis of the deposited data

Results flagged for a closer look

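In 7 of 62 groups of 6 libraries behind the named features and library measures, 1 library stood apart from the other 5, where chance marks about 1 group in 20. The measure is its gap to the nearest library divided by the range of the group, set against Dixon's critical value. Zm00001d051872 had a gap of 0.744 in root, where the Mo17 V1 root was at 1187 and the next library at 529 scaled units, and of 0.781 in stem, where the Mo17 stem was at 0.782 and the next at 0.171. Zm00001d005454 had a gap of 0.747 in stem, with 765 in the F1 stem and 456 in the next library. A gap of 1 follows whenever 5 libraries are at 0 and 1 is not. It was found for 4 circRNAs that a single library of the lower organ listed above 0. These are the 342 bp circRNA of chromosome 3, at 0.0736 RPM in the F1 stem, and the 2187 bp circRNA of chromosome 1, at 0.0588 RPM in the F1 internode. The others are the 641 bp circRNA of chromosome 10, at 0.0589 RPM in the F1 V1 root, and the 701 bp circRNA of chromosome 4, at 0.0818 RPM in the B73 V1 root.

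The root-minus-stem change differed between B73 and Mo17, by an interaction test, for the 4 named genes: by 7.12 for Zm00001d035246, 5.14 for Zm00001d042122, -7.76 for Zm00001d016189 and -4.08 for Zm00001d028548 (log2, B73 minus Mo17; limma adjusted p = 0.00201, 0.000361, 0.00160 and 0.0324).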

How the results depend on the processing

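The paired fit with line as block is the one reported. With no replicate block the calls were 2269 higher and 1856 lower for mRNA, 18 and 177 for circRNA, 18 and 120 for host sums, 44 and 269 for the ratio, and 29 and 181 for host-summed ratios, whose calls with the block were 51 and 379. Without the block the exact permutation p was 0.110 for number (-2835) and 0.180 for hosts (-1128). With tissue as a random effect beside the block 1247 mRNAs were lower. Scaling moved circRNA calls to 102 and 102 (table total) or 72 and 142 (median ratio), host sums to 100 and 85, the ratio to 142 and 176 and host-summed ratios to 120 and 137. It turned 3 abundant circRNAs: chr1:10524204-10527870 changed by 0.12 (total), chr2:108746785-108751424 by 0.57 (total) and 0.28 (median ratio), and chr3:211646774-211647685 by 0.34 and 0.049, against -0.89, -0.44 and -0.67 as deposited.

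Without shared spread 13 and 148 circRNAs were called. Single tables gave 1657 and 1328 mRNAs in B73, 9 and 160 circRNAs in Mo17, and for B73 with F1 5788 and 4583 mRNAs and 81 and 466 circRNAs. Host sums gave 9 and 74 in B73, 6 and 81 in Mo17 and 10 and 137 in F1 alone. A circRNA pseudocount 10 times larger gave 403 and 619 ratio calls, and a filter at 6 libraries 30 and 251. That filter left 5 line-dependent mRNAs, and leaving out F1 left 19. Span at 2 times the smallest value differed by 141 bp (p = 0.0556).

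Leaving out a library, a line or a tissue gave 1993 to 2567 higher and 1583 to 2114 lower mRNAs. It gave 7 to 35 and 91 to 268 circRNAs (fewest without F1, 7 and 91; without the stem tissue 8 and 113), 9 to 40 and 66 to 273 host sums, and 33 to 69 and 153 to 409 ratios. The differences ran from -3619 to -1800 circRNAs, -1459 to -910 RPM, -1449 to -673 hosts, 142 to 268 bp, -4.42 to -2.67 points of the share of the 10 most abundant, and -0.0373 to 0.0216 points of the organellar share (reversed without the B73 stem or internode). The organellar share counted only circRNAs with a B73 organelle position. It was 0 in the Mo17 libraries and the F1 roots, so it describes B73 almost alone. Leaving out a line allows no p below 0.0556. Without 1 Mo17 root or 1 F1 stem library the p for number was 0.0556 to 0.0833. With 1 library left out the lines are no longer balanced, so differences between lines enter the organ means. Any other cause of these moves was not tested.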
